A study of Mus musculus with 4 samples.

Results

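A set of 10 scavenger and lectin receptor genes of macrophages was followed in single-cell libraries of subcutaneous LLC tumors (Lewis lung carcinoma, grown from a lung cancer cell line of the mouse): Mrc1, Cd163, Folr2, Lyve1, Fcna, Clec10a, Msr1, Cd209d, Cd209f and Cd209g. All 10 were matched by symbol among the 18605 genes that every table listed. They had been chosen by their levels in earlier results of the same libraries, so every comparison of NT with RT given here is a description and carries no test. The control group (NT, not irradiated, with the treatment label Mock) was 1 library made from 3 pooled tumors. The radiotherapy group (RT) was 3 libraries of 1 tumor each (RT1, RT2 and RT3), from tumors given 3 fractions of 8 Gy. The dose of 24 Gy in all fell between day 7 and day 9 from the injection of the cells, at a mean tumor volume of 100 mm3. All mice were C57/BL6N, were 6 to 8 weeks old and carried no gene modification named in the labels. Cells of all 4 libraries were described as collected 72 h after radiation, though the NT mice were not irradiated. Because NT was 1 library, the spread between control tumors is not known, and all 3 RT ratios share the same NT value.

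Scavenger receptors bind modified lipoproteins, cell debris, microbes and spent plasma proteins and bring them into the cell, and C-type lectin receptors bind sugars on proteins, microbes and matrix. In tissue macrophages both kinds clear material without necessarily raising inflammation. Several of these genes, among them Mrc1, Cd163, Lyve1 and Folr2, are widely used to mark macrophages that live in tissue near vessels or that have an alternatively activated phenotype.

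The NT table held 69667759 unique molecular identifiers (UMIs, which count messenger RNA molecules) on 10141 barcodes. In RT, 15346 barcodes held 78585759 UMIs in RT1, 14994 held 108699844 in RT2 and 15324 held 85660188 in RT3. RT2 stood apart, since its table listed genes by symbol alone and no barcode had more than 11.95% mitochondrial UMIs, whereas the other tables reached 91.5% or more. Of all barcodes, 1337 sequences occurred in more than 1 library, and these were read as separate cells. Clusters were named from marker genes, with the 10 receptor genes not used to build them. Macrophage-like cells, termed macrophages here, were named from complement, Apoe, Adgre1 and related markers, and all 9 markers were above the mean of the clusters in every macrophage sub-cluster. They numbered 578 in NT, 2724 in RT1, 2532 in RT2 and 1578 in RT3. Monocyte-like cells numbered 383, 1421, 1507 and 1443, and dendritic-like cells numbered 192, 334, 564 and 321. Levels are CPM, a gene's UMIs per 1000000 UMIs summed over the cells of a type in a library, with exact Poisson intervals at 95% that cover counting error only and treat UMIs of the same cell as independent. Where 3 values of the RT group follow each other, they stand for RT1, RT2 and RT3 in that order.

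Macrophages held 49.5% to 100% of the UMIs of each member in the RT libraries, but in NT they held 0 of 12 Cd209d UMIs and 1 of 5 Cd209f UMIs. Of all Lyve1 UMIs, 73.2% lay in macrophages in NT and 83.5% to 87.9% in the RT libraries. For Mrc1 the shares were 60.8% and 68.9% to 76.6%, and for Msr1 they were 56.3% and 49.5% to 62.8%. Fcna differed from the others, since 33.8% of its NT UMIs were on tumor cell barcodes, against 1.1% for Mrc1. Tumor cells held Fcna at 3.0 CPM in NT and 3.9, 5.0 and 3.6 CPM in RT, so this level was low in each tumor cell but spread over many cells. A further 1229 deep barcodes carried myeloid genes together with tumor genes, were left out of every cell type and held up to 10.5% of a member's UMIs in a library.

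**Figure D1:**
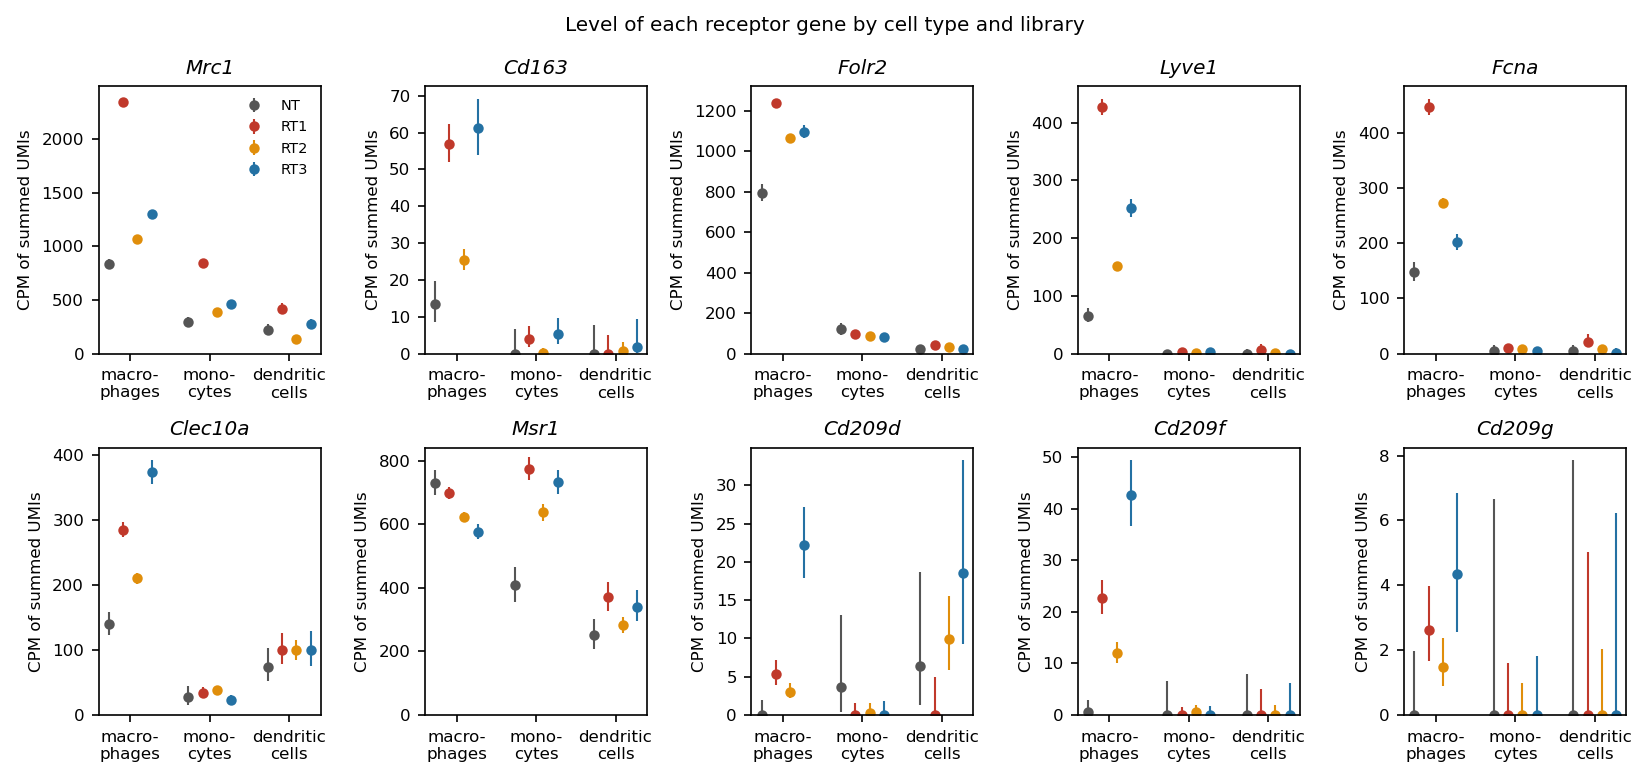
CPM of summed UMIs (vertical axes, which differ between genes) of the 10 genes in macrophages, monocytes and dendritic cells, with 1 point per library and 95% Poisson intervals. In macrophages, NT lay under every RT library for each gene except Msr1, while among members of at least 5 CPM in monocytes NT was the lowest library for Mrc1 and Msr1 and the highest for Folr2.

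Of the 10 genes, 9 reached a mean of 5 CPM in macrophages and were counted, and Cd209g did not. Of these 9, 8 were higher in every RT library than in NT, where 36.1% of all 8436 genes read in macrophages were, and 1, Msr1, was lower in every RT library, where 29.9% were. At least 2-fold higher in every RT library were 3 members (Lyve1, Cd209d and Cd209f), where 3.67% of all genes were, and 0 were at least 2-fold lower, where 1.29% were. These shares describe the genes among which the members were chosen, and nothing is read from the excess. Cd209d was counted with the 0.5 UMI added to its 0 NT UMIs, whereas against a floor of 3 NT UMIs it was at least 1.91-fold higher in RT2, under 2-fold. The count also rested on single libraries: without RT2 it was 5, with Cd163 and Clec10a added, and without RT3 it was 2, with Cd209d lost. Cd209d was also lost at resolution 0.5, without integration, with the members among the clustering genes and with the 3 myeloid classes as 1 or the unnamed sub-clusters given to the nearest class, and Cd209d and Cd209f were lost at a minimum of 20 CPM. The median log2 ratio of the 9 genes was 1.01, also with Cd209d at its lower bound, against 0.04 for all genes read.

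**Figure D2:**
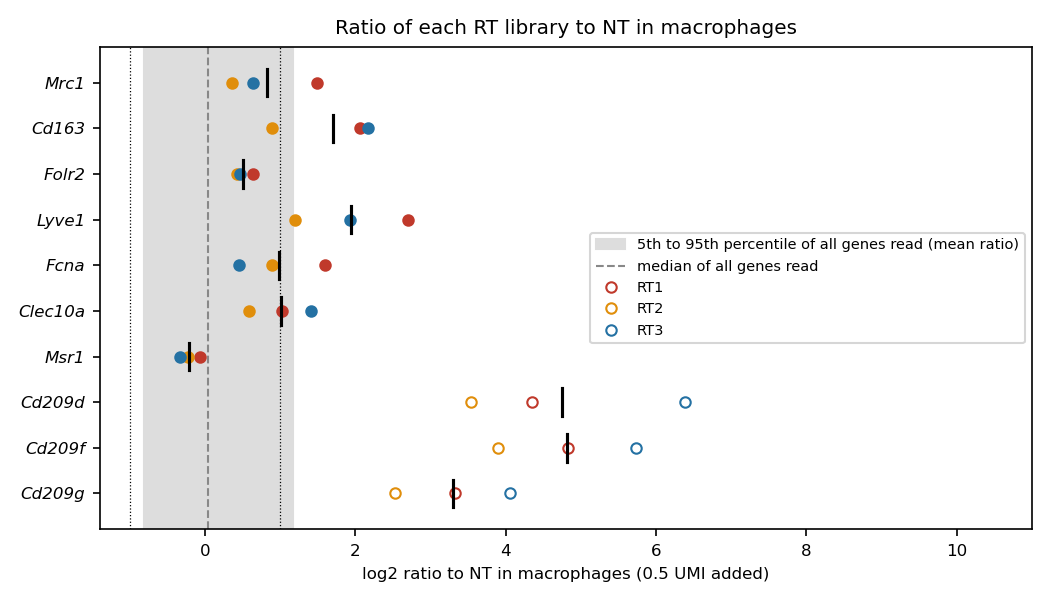
Log2 ratio of each RT library to NT in macrophages (horizontal axis, 0.5 UMI added to each sum) for the 10 genes, with the mean as a black bar and open points where NT held 3 UMIs or fewer. Grey marks the 5th to 95th percentile of the mean ratio over all genes read (-0.82 to 1.16), the dashed line its median, and dotted lines a 2-fold change; Cd163, Lyve1 and the Cd209 genes had means beyond the grey band.

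Mrc1 encodes the mannose receptor, which takes up glycoproteins and collagen fragments. Its level in macrophages was 836 CPM in NT, 2348 in RT1, 1069 in RT2 and 1297 in RT3. The RT mean was 1571 ± 682 CPM (SD, n = 3), and RT1 alone was more than 2-fold above NT. The 95% intervals of all RT libraries lay above that of NT (795 to 879 CPM). Monocytes showed the same order of libraries at a lower level, with 295 CPM in NT and 843, 387 and 465 CPM in RT. In dendritic cells RT2 was under NT, with 224 CPM in NT and 418, 139.8 and 272 CPM in RT. Mrc1 was also higher in every RT library than in NT in cells that should lack it, with 4.2 CPM in NT lymphocytes and 96.0, 47.2 and 26.3 CPM in RT. The part of free RNA or doublets in this was not tested, and the macrophages of the same RT libraries held 1069 CPM or more.

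Msr1, the class A scavenger receptor for modified lipoproteins and bacterial lipids, showed a different pattern. Macrophages held 730.1 CPM in NT and 698, 623 and 577 CPM in RT, so NT was the highest library by a small margin, and the interval of RT1 overlapped that of NT. Monocytes held 408 CPM in NT and 775, 638 and 732 CPM in RT, a log2 ratio of 0.80 ± 0.14 (SD, n = 3) against -0.21 ± 0.14 in macrophages. In dendritic cells the values were 251 CPM in NT and 371, 283 and 341 CPM in RT. Monocytes thus had a higher Msr1 level than macrophages in each RT library, by a small margin in RT2 (638 against 623 CPM). Macrophages had the higher level in NT. All 3 monocyte sub-clusters had NT as the lowest library for Msr1.

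Cd163, the receptor for hemoglobin bound to haptoglobin, was found in few macrophages. Macrophages held 13.4 CPM in NT and 57.0, 25.3 and 61.2 CPM in RT, with a mean log2 ratio of 1.71 ± 0.71 (SD, n = 3). RT2 stood lowest of the RT libraries, though its interval (22.6 to 28.3 CPM) was above that of NT (8.67 to 19.8 CPM). The NT value came from 25 UMIs in 14 of 578 macrophages, and 10 cells held 84.0% of them. In monocytes and dendritic cells Cd163 was at or under 5.39 CPM in every library.

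Folr2, a membrane receptor that binds folate, varied least between the RT libraries among the members. Its macrophage level was 794 CPM in NT and 1236, 1065 and 1096 CPM in RT, a mean of 1132 ± 90.9 CPM (SD, n = 3) and a log2 ratio of 0.51 ± 0.11. In monocytes NT was the highest library, with 119 CPM in NT and 97.0, 85.4 and 81.9 CPM in RT, where the intervals overlapped that of NT. The mean monocyte log2 ratio was -0.45, but 0.15 with equal weight for every cell and 2.32 with cells typed by their markers. In dendritic cells Folr2 was at 22.0 to 40.8 CPM in the 4 libraries, and the groups overlapped.

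Lyve1, a receptor for the matrix sugar hyaluronan, had the largest relative difference among members with more than 1 UMI in NT. Macrophages held 65.9 CPM in NT and 427, 152 and 252 CPM in RT. The RT mean was 277 ± 139 CPM (SD, n = 3), and the log2 ratio was 1.94 ± 0.75. The libraries did not overlap, and RT1 and RT2 were the highest and the lowest of RT. In NT, 27 of 578 macrophages held the 123 UMIs and 10 of these cells held 82.9%, so the Poisson interval of that library (54.8 to 78.6 CPM) understates its error. Lyve1 also marks lymphatic vessels. Endothelial cells held at most 4 Lyve1 UMIs in any library. Of 6 lymphatic markers 2 were in the tables, and in macrophages both were higher in every RT library, where 36.1% of all genes were. Pdpn was at 171 CPM in NT and 231, 242 and 293 CPM in RT, and Flt4 was at 0 in NT and under 0.5 CPM in RT. Their part in the Lyve1 ratio was not tested. Monocytes and dendritic cells held 0 to 6.79 CPM.

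Fcna encodes ficolin A, a secreted lectin that binds acetylated sugars and starts the lectin pathway of complement. In macrophages it was at 147 CPM in NT and 447, 272 and 202 CPM in RT, a log2 ratio of 0.98 ± 0.58 (SD, n = 3). RT1 was highest, as for Mrc1 and Lyve1. Clec10a, a lectin for galactose and N-acetylgalactosamine, had another order. It stood at 139.8 CPM in NT and 285, 210.1 and 373 CPM in RT, so RT3 was highest, and the log2 ratio was 1.01 ± 0.42. Dendritic cells held 74.5 CPM of Clec10a in NT and 101, 99.2 and 99.7 CPM in RT, with each interval overlapping that of NT. In monocytes both lectins were low, with 5.39 to 9.91 CPM of Fcna and 23.5 to 38.2 CPM of Clec10a, and the groups overlapped.

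Cd209d, Cd209f and Cd209g are mouse relatives of DC-SIGN, a lectin for mannose and fucose. Macrophages held 1 UMI of Cd209f in NT and 190, 144 and 177 in RT, or 0.536, 22.7, 12.0 and 42.6 CPM. The ratio to NT was 42.5 in RT1 (95% exact interval 7.53 to 1685), 22.3 in RT2 (3.94 to 887) and 79.6 in RT3 (14.1 to 3160). These intervals treat UMIs of the same cell as independent and understate the error. In RT, 10 cells held 88.4%, 95.1% and 72.3% of the Cd209f UMIs of macrophages. The ratios also depend on which cells were named macrophages. The unnamed sub-cluster 9, whose nearest class was macrophage, held 4 of the 5 Cd209f UMIs and 6 of the 12 Cd209d UMIs of NT. With the unnamed sub-clusters given to the nearest class, the mean Cd209f log2 ratio was 3.13 in place of 4.82 and that of Cd209d 1.18 in place of 4.75. Over all kept cells of a library, with no cell types, Cd209f was at 0.0722 CPM in NT and 3.19, 1.47 and 2.33 CPM in RT, and Cd209d at 0.173 CPM in NT and 0.695, 0.543 and 1.32 CPM in RT. In macrophages as named, Cd209d was at 0 UMIs in NT and at 45, 37 and 92 UMIs in RT. Against a floor of 3 UMIs in the NT library, it was at least 1.91-fold higher in RT2, which was the lowest RT library, and RT3 was the highest with 22.2 CPM. Cd209g was at 0 UMIs in NT and at 22, 18 and 18 UMIs in RT, and RT2 was under the floor of NT. Dendritic cells held Cd209d at 6.39 CPM in NT and at 0, 9.87 and 18.6 CPM in RT, and no UMI of Cd209f or Cd209g.

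These UMIs came from few cells. Cd209f was found in 20 of 2724 macrophages in RT1, 16 of 2532 in RT2, 26 of 1578 in RT3 and 1 of 578 in NT. The NT share of 0.173% had a 95% exact binomial interval of 0.00438% to 0.960%, which overlapped those of RT1 (0.449% to 1.13%) and RT2 (0.362% to 1.02%) but not that of RT3 (1.08% to 2.40%). These intervals cover counting error over the cells of each library and are no test of NT against RT. The cells had median UMIs of 2324, 5085 and 2221 against 2432, 4022 and 2048 in the other macrophages of RT1, RT2 and RT3, so they were shallower in RT1 and deeper in RT2 and RT3. Of these cells, 8, 14 and 18 lay in macrophage sub-cluster 1. Cd209d was found in 10, 5 and 15 of them and Cd209g in 9, 6 and 11. Outside them, Cd209d was at 0.965, 1.09 and 1.96 CPM.

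Macrophages with a Cd209f UMI also differed in other members, which is a description of cells picked by 1 gene. Lyve1 was at 1357, 919 and 1639 CPM in them and at 420.1, 146 and 225 CPM in the other macrophages of RT1, RT2 and RT3. For Clec10a the values were 1067, 1338 and 1829 CPM against 279, 202 and 345 CPM. Cd163 was 8.20-, 2.79- and 11.1-fold higher, the middle value from 6 UMIs. Mrc1 did not separate the cells, with ratios of 0.863, 1.09 and 1.37. Msr1 was at 686, 384 and 241 CPM in them and at 698, 625 and 583 CPM in the others.

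**Figure D3:**
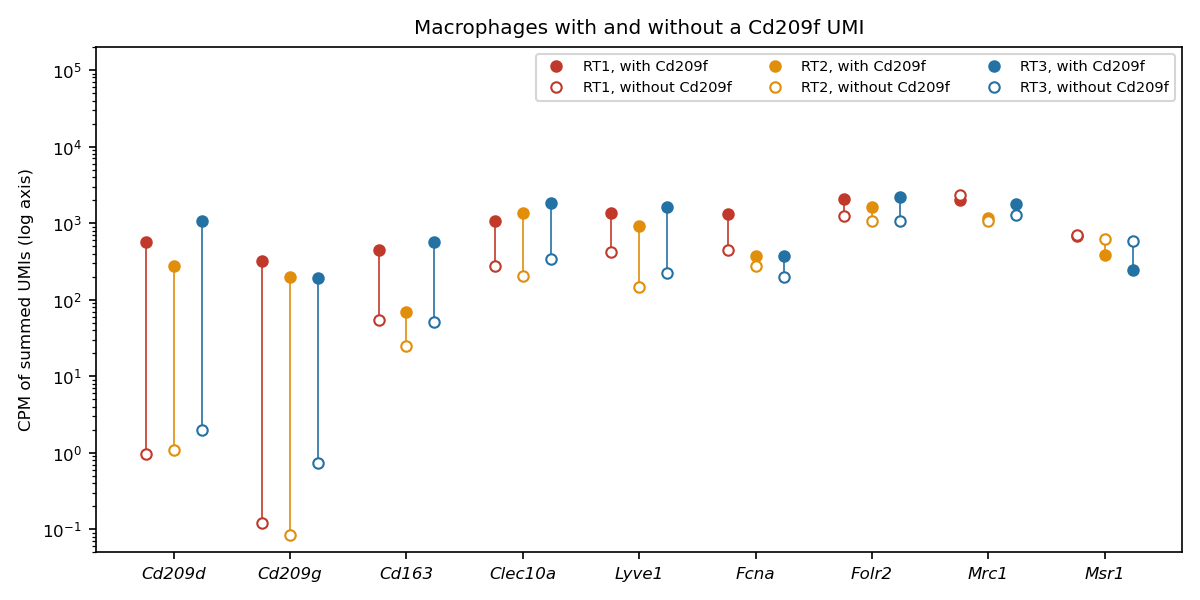
CPM of summed UMIs (log axis) in macrophages with a Cd209f UMI (filled; 20, 16 and 26 cells in RT) and without (open). Cd209d, Cd209g, Cd163, Clec10a, Lyve1, Fcna and Folr2 were higher in the cells with Cd209f in all 3 RT libraries, and Mrc1 and Msr1 were not.

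The promoters of Cd209f and Cd209g are shown because the 2 genes were found in the same few cells and their sequences around the start site shared 238 of 286 aligned bases (83.2%). RefSeq promoters (GRCm38.p6, 250 bases before to 50 after the start) were matched for 7 of the 10 members, Folr2 with 2 starts, and none for Lyve1, Clec10a and Msr1. Cd209f lies at chr8:4105715-4106014 on the minus strand and Cd209g at chr8:4134486-4134785 on the plus strand, and capitals mark the 180 bases that are identical in both:
Cd209f: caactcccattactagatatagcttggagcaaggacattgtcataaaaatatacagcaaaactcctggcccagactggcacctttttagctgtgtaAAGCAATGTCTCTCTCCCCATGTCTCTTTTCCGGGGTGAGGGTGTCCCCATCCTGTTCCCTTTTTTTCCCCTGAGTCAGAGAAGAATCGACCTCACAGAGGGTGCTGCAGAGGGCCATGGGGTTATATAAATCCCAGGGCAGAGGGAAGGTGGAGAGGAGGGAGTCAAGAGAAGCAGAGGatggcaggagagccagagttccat
Cd209g: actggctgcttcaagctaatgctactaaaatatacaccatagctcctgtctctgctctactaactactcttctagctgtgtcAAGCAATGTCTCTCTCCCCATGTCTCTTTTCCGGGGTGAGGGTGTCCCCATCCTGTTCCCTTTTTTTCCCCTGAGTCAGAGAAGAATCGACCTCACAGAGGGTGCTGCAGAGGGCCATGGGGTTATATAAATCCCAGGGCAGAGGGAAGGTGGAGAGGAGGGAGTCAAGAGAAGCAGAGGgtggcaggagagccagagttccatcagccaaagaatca
Among the other 26 pairs of member promoters, the longest shared run was 12 bases. The AP-1 letters TGANTCA, where N is any base, occurred on both strands (the site is a palindrome apart from N) inside the shared run of both, also in 1 of the 2 Folr2 promoters, and in 7.81% of all 32851 promoters of the table. The letters GAGGAA, read by ETS factors such as PU.1, were found on either strand in Mrc1, Fcna and Cd209d and in 28.3% of all promoters. The MAF core letters TGCTGAC were found in Fcna alone among the members and in 4.67% of all promoters. The last 500 bases of the Cd209d, Cd209f and Cd209g transcripts (GENCODE M21), which a 3′ kit reads, shared no run of 50 bases with any other Cd209 transcript.

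Within macrophages, the members differed between the 5 sub-clusters that marker genes put in this class. Sub-cluster 1, led by Lyve1, Ccl8, Npl, Bmp2 and Pmp22 by fold, held the highest mean level over the 4 libraries of Mrc1, Cd163, Folr2, Lyve1, Fcna, Clec10a and Cd209f. Lyve1 there was at 152 CPM in NT and 697, 290 and 618 CPM in RT. Sub-cluster 2 was led by Cxcl5, Mmp12 and Atp6v0d2. Its mean level over the 4 libraries was the lowest among macrophages for Lyve1, Fcna, Folr2, Clec10a and Cd163. In NT alone this order did not hold for most of them. Lyve1 in NT was at 62.9 CPM in sub-cluster 2 and at 13.3, 10.8 and 15.8 CPM in sub-clusters 3, 7 and 10. In NT, sub-cluster 2 was also not the lowest for Fcna, Clec10a and Cd163. Sub-cluster 2 also held the highest mean level of Msr1 of any myeloid sub-cluster. Msr1 was at 749 CPM there in NT and at 853, 712 and 686 CPM in RT, and the next sub-clusters in that order did not differ from it beyond the spread over libraries. Sub-cluster 3 held few UMIs per cell. It also held more of the tumor marker Rhox5, at a mean of 204 CPM over libraries. The other macrophage sub-clusters held 34.1 to 43.2 CPM of it. Sub-cluster 7 was led by Ifnb1, Cd4 and Ccl8, and 10 by Ifit1bl1, Ifit3b and Retnla.

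Mrc1 was higher in all 3 RT libraries than in NT in each of the 5 macrophage sub-clusters. The same held for Cd163, Folr2 and Lyve1 in 4 of them and for Fcna and Clec10a in 3, and Msr1 was lower in every RT library in 4. In sub-cluster 7 Lyve1 was at 10.8 CPM in NT and at 379.9, 72.5 and 145 CPM in RT, and in sub-cluster 2 it was at 62.9 CPM in NT and at 83.0, 34.4 and 25.2 CPM, where RT2 and RT3 were under NT. The make-up of the macrophages moved as well. Sub-cluster 1 was 23.0% of macrophages in NT and 29.6%, 29.3% and 23.4% in RT, and sub-cluster 7 was 25.3% and 14.9%, 16.4% and 13.8%. With the sub-clusters of each RT library weighted as in NT, Lyve1 was at 393, 132 and 246 CPM and Mrc1 at 2257, 1043 and 1295 CPM, close to the values as measured.

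**Figure D4:**
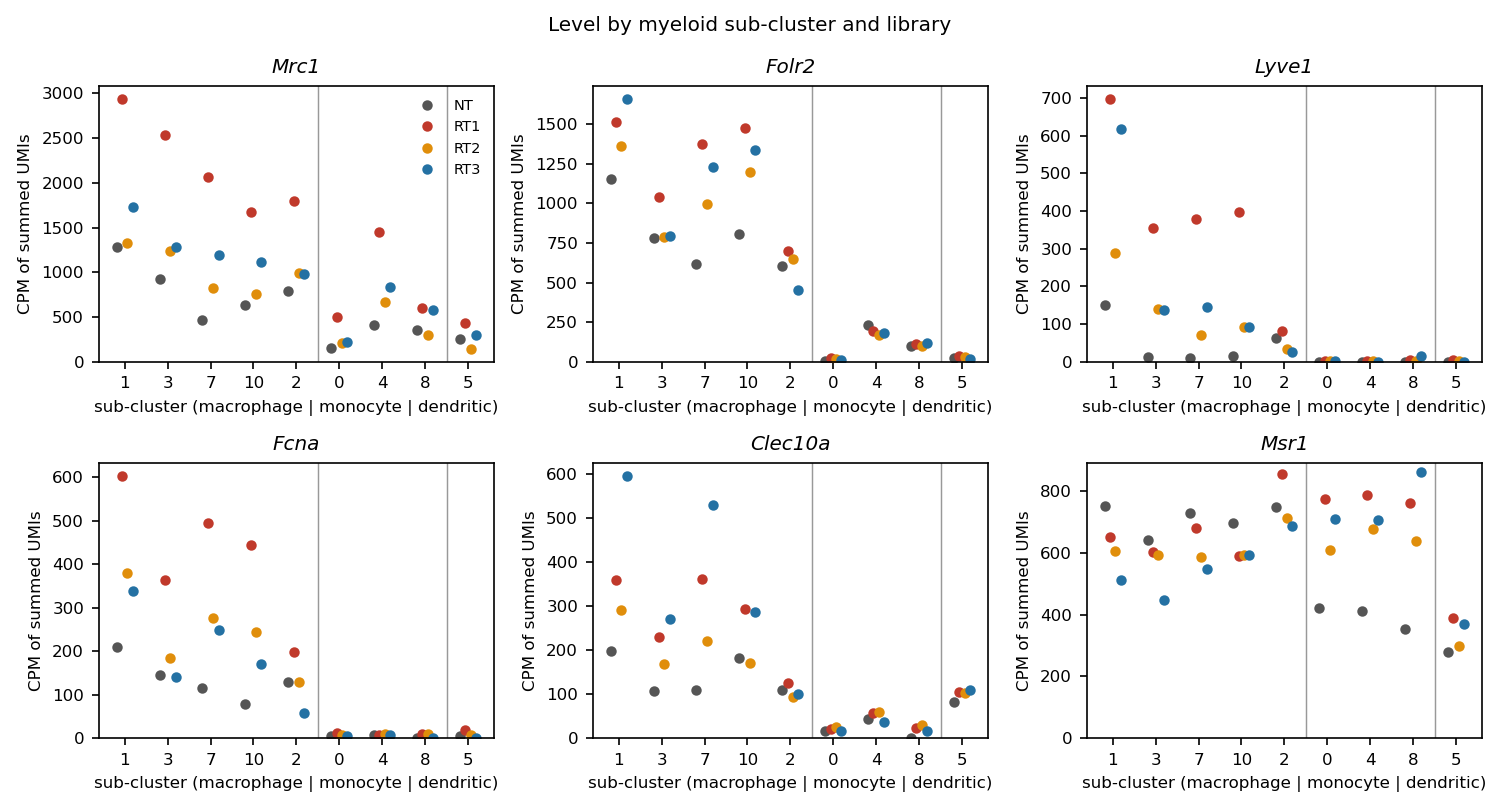
CPM of summed UMIs for 6 of the genes in the macrophage (1, 3, 7, 10, 2), monocyte (0, 4, 8) and larger dendritic (5) sub-clusters, with 1 point per library. Lyve1 and Fcna were near 0 outside macrophages, Mrc1 was highest in RT1 in all 9 sub-clusters shown, and Msr1 reached the macrophage level in RT monocytes.

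The share of macrophages with a UMI was compared after each cell was thinned to 1000 UMIs, which left out 108, 500, 388 and 358 cells of NT, RT1, RT2 and RT3 below that depth. Mrc1 was found in 38.7% of NT macrophages and in 72.3%, 52.7% and 58.0% in RT. Without thinning the shares were 59.2% and 82.2%, 76.4% and 66.3%, at median depths of 2674, 2432, 4024 and 2054 UMIs. Lyve1 was found in 2.34% of thinned NT macrophages (95% exact binomial interval 1.17% to 4.15%) and in 19.0%, 8.30% and 10.9% in RT. For Msr1 the shares were 46.0% and 45.5%, 42.6% and 41.4%, with intervals that overlapped. Tumor cells, which should lack these genes, held a UMI of any member at the same depth in at most 0.524% of cells. Fcna was found in 0 to 1.80% of dendritic cells and 0.420% to 1.04% of monocytes, beside 0.325% to 0.524% of tumor cells.

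**Figure D5:**
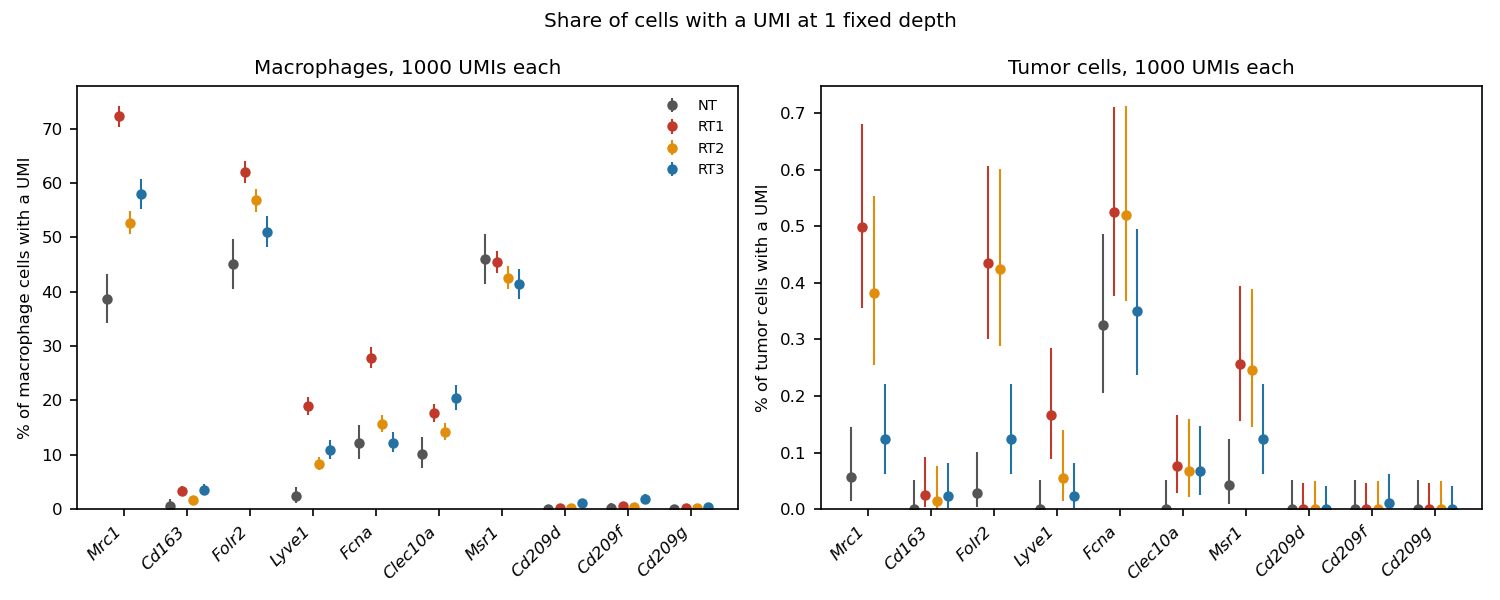
Share of macrophages (left) and of tumor cells (right, on a finer scale) with at least 1 UMI of each gene after thinning each cell to 1000 UMIs, with 95% exact binomial intervals. Every gene except Msr1 had a higher share in each RT library than in NT, though several intervals overlapped that of NT. For Fcna the share was 12.1% in NT and 12.2% in RT3. Shares of tumor cells were at most 0.524% for every gene.

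Members were found together in single macrophages. Among thinned RT macrophages with a Lyve1 UMI, Mrc1 was found in 85.1%, 68.5% and 78.2% of cells in RT, against 69.2%, 51.2% and 55.5% of the cells without one. Fcna was found in 46.8%, 28.1% and 27.8% against 23.4%, 14.5% and 10.3%. Msr1 was found in 43.7%, 34.3% and 36.8% against 45.9%, 43.3% and 42.0%, so Msr1 was not found more often beside Lyve1. In NT only 11 thinned macrophages had a Lyve1 UMI, too few for shares to be compared.

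Likeness was read as Pearson's r of log2 CPM over 41 profiles, each a myeloid sub-cluster in 1 library, which share libraries and cell types; r describes these profiles only. The ranking covered 5274 genes, with a minimum of 20 CPM. The genes most like Mrc1 were Dab2 (r = 0.975), Snx3 (0.929), Stab1 (0.922), Rnase4 (0.918) and Itsn1 (0.914). Nearest to Lyve1 were Stard8 (0.955), Tpp1, Serpinb6a, Selenop and Tgfbr2. Clec10a was most like Fcgrt (0.889), Timp2, Cd81, Cd38 and Cd63. Msr1 was most like Ccl2 (0.731), C5ar1, Rap2b, Tfec and Plin2, and its r with the other members was 0.426 at most, with Mrc1.

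Other genes of the same pathways were read from lists that were written with earlier results of these data known, so their counts are descriptions too. Among 9 other scavenger receptors counted in macrophages, 2 were at least 2-fold higher in every RT library (3.67% of all genes) and 0 lower (1.29%). Marco, another class A receptor, was at 12.3 CPM in NT and at 92.7, 172 and 93.9 CPM in RT. Colec12 was at 1.07 CPM (2 UMIs) and 10.9, 6.39 and 3.85 CPM. Among 15 other C-type lectins and sialic acid receptors, Siglec1, the sialoadhesin of macrophages, was higher (19.3 CPM in NT and 94.3, 88.9 and 58.3 CPM in RT), and 2 were lower. Clec4b1 was at 16.6 CPM in NT and 2.87, 3.65 and 4.09 CPM in RT, and Siglece, an inhibitory receptor, at 43.4 and 12.0, 13.2 and 6.50 CPM. Median log2 ratios of the 2 lists were -0.05 and -0.08, close to that of all genes.

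Of 14 tissue-type macrophage genes counted, 0 were at least 2-fold lower in every RT library (1.29% of all genes), and the median log2 ratio was 0.92. At least 2-fold higher in every RT library were 6 (3.67% of all genes). They were the chemokines Ccl8 (1861 CPM in NT and 6208, 4625 and 5123 CPM in RT), Pf4 and Ccl24, the carbonyl reductase Cbr2, the complement receptor Vsig4 and the complement regulator Cd55. Vsig4 and Cd55 were at 0 UMIs in NT and at 189, 23 and 49 and at 121, 279 and 109 UMIs in RT. The place of Vsig4 in the count depends on the 0.5 UMI added, since its 1.91 CPM in RT2 was near the NT floor of 1.61 CPM (3 UMIs), and that of Cd55, at 14.5 CPM or more in RT, does not. In the heme list 1 of 7 was higher, the ferritin chain Fth1 (4853 CPM in NT and 10685, 10183 and 11404 CPM in RT), whereas the heme oxygenase Hmox1 was at 2936 CPM and 2610.0, 2145 and 4528 CPM.

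In the hyaluronan, interleukin 4, glucocorticoid and lectin pathway lists no gene of at least 5 CPM in macrophages was at least 2-fold higher or lower in every RT library. Ear2, a ribonuclease of the interleukin 4 list that fell just under this level, was at 1.61 CPM (3 UMIs) in NT and 5.62, 4.32 and 7.47 CPM in RT. Of the hyaluronan list 2 genes were counted, the receptor Cd44 (513 CPM in NT and 310.0, 290.1 and 450.1 CPM in RT) and the hyaluronidase Hyal2 (3.21 and 6.34, 6.22 and 5.30 CPM). In the interleukin 4 list of 5, Il4ra was at 60.5 CPM and 138, 144 and 92.2 CPM and Retnla at 59.5 CPM and 179.5, 29.6 and 12.3 CPM, where RT1 alone was above NT. In the glucocorticoid list of 7, Dusp1 was at 7198 CPM and 6814, 7675 and 6312 CPM, Tsc22d3 at 281 CPM and 452, 489 and 358 CPM, and Sgk1 at 464 CPM and 243, 216 and 261 CPM. None of the 4 ficolin and lectin pathway partners in the tables, Fcnb, Masp1, Masp2 and Colec11, reached 0.5 CPM in macrophages of any library.

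In monocytes 5 members were counted. At least 2-fold higher were 0, where 5.74% of all 8282 genes were, and 0 were lower, where 1.61% were. Mrc1 and Msr1 were higher in every RT library, where 40.1% of genes were. The mean Mrc1 log2 ratio was 0.85, but -0.02 at its lowest among 17 alternatives. Folr2, whose mean ratio turned positive under the 2 alternatives named above, was lower in every RT library, where 27.1% were. In dendritic cells 6 members were counted, of which 0 were at least 2-fold higher (4.42% of all 8583 genes) and 0 lower (1.37%). Clec10a and Msr1 were higher in every RT library, where 30.5% of genes were, and 0 were lower in every RT library, where 28.8% were. The mean dendritic Msr1 log2 ratio was 0.39, but -0.26 without integration. From the lists, Ccl8, Ccl24, Ednrb, Ear2 and Fkbp5 were at least 2-fold higher in every RT library in monocytes and Olr1, Mgl2, Fpgs and Sgk1 lower. Ednrb was counted with the 0.5 UMI added, since it was at 0 UMIs in NT monocytes and at 7.76, 5.96 and 11.8 CPM in RT, beside an NT floor of 5.42 CPM (3 UMIs). In dendritic cells F13a1, Ccl17, Olr1, Cd33, Klf9, Pf4 and Ccl24 were higher, and Scarf1 and Cd209c lower. Olr1 there rested on 1 NT UMI and was at 9.51, 15.3 and 10.1 CPM in RT, beside an NT floor of 6.39 CPM (3 UMIs).

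The markers of these populations differed between NT and RT as well. Of all genes read in monocytes, 40.1% were higher in every RT library and 27.1% lower. In dendritic cells these shares were 30.5% and 28.8%. In monocytes all 8 neutrophil markers were higher in every RT library, with a sum of 219 CPM in NT and 497, 542 and 390 CPM in RT and Trem1 the most abundant. Of the 9 macrophage markers 5 were lower in monocytes of every RT library and 2 higher, with sums that overlapped (3554 CPM in NT and 3013, 3748 and 2886 CPM in RT), and the monocyte markers summed to 4402 CPM in NT and 7698, 7011 and 10215 CPM in RT. In dendritic cells 8 of the 10 dendritic markers were lower in every RT library and 2 higher. They summed to 1918 CPM in NT and 914, 884 and 1310.2 CPM in RT, with Ccr7 the most abundant. The 9 macrophage markers summed there to 2091 CPM in NT and 2481, 2634 and 1746 CPM in RT, above the dendritic sum in every library. The 8 monocyte markers summed there to 1669 CPM in NT and 4046, 3559 and 4368 CPM in RT, 6 of them higher in every RT library. Of the 8 fibroblast and 8 neutrophil markers, 6 each were higher there in every RT library and 0 lower. Fibroblast markers summed there to 12.8 CPM in NT and 84.2, 75.6 and 188 CPM in RT. Neutrophil markers summed there to 74.5 CPM in NT and 365, 255 and 193 CPM in RT. In monocytes the fibroblast markers summed to 50.6 CPM in NT and 129, 84.0 and 162 CPM in RT. The part of these shifts in the monocyte and dendritic ratios was not tested.

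Marker genes also differed between NT and RT inside the macrophages. Of all genes read there, 36.1% were higher in every RT library and 29.9% lower. Of the 9 macrophage markers 6 were higher in every RT library, with a sum of 9642 CPM in NT and 13396, 17021 and 12975 CPM in RT and C1qb the most abundant. Of 8 monocyte markers 6 were higher and 1 was lower, with a sum of 351 CPM in NT and 462, 371 and 614 CPM in RT. The most abundant, Fn1, was at 197 CPM in NT and 275, 136 and 183 CPM in RT. All 8 neutrophil markers had UMIs there, 7 of them higher in every RT library, with a summed level of 64.8 CPM in NT and 416, 593 and 191 CPM in RT and Mmp9 the most abundant. Neutrophils held Mrc1 at 0 to 101 CPM and Lyve1 at 0 to 8.97 CPM, under the macrophage levels of every library. The 8 tumor markers summed to 65.9 CPM in NT and 91.4, 73.9 and 111 CPM in RT, with Rhox5 the most abundant and Krt7 at 0. Of these 2 were higher in every RT library and 0 lower. Of 8 fibroblast markers 7 were higher in every RT library and 1 was lower. They summed to 39.1 CPM in NT and 82.9, 59.4 and 109 CPM in RT, with Col3a1 the most abundant. Of 8 endothelial markers 5 were higher and 1 was lower. They summed to 6.96 CPM in NT and 14.0, 14.6 and 13.5 CPM in RT, with Cldn5 at 0. The median mitochondrial share of macrophages was 6.44% in NT and 5.57%, 4.91% and 5.22% in RT. The part of these shifts in the members' ratios was not tested. The 8 genes were still higher in every RT library after tumor RNA was subtracted, but that step cannot decide the question. It could change the members little, since at most 0.524% of tumor cells thinned to 1000 UMIs held a UMI of any member.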

How the data were processed

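The authors prepared the libraries with a microwell 3′ kit and SeekOne Tools and deposited UMI counts per gene and barcode, without normalization. The submitters' notes also name STAR 2.5.1b, Subread 1.6.4 and the build GRCm39. Kept barcodes had 200 genes or more and no more than 20% mitochondrial UMIs (9976, 15029, 14993 and 15060 for NT, RT1, RT2 and RT3). Counts were scaled to 10000 per cell, and 2000 variable genes and 30 principal components were integrated over libraries with a rewritten Harmony (theta 2), since it was not installed. A graph of 20 neighbors was clustered with leidenalg 0.10.2 at resolution 0.8, and myeloid cells were clustered again. A cluster took the class with the highest marker score. It stayed unnamed with fewer than 3 markers above the mean, with a median depth more than 3-fold under its libraries' median and no own marker among its top 10 genes, or, among myeloid cells, with class scores closer than 0.2, as happened for 601 and 243 cells. Macrophage sub-cluster 3, at 0.397 of its libraries' median depth, was kept under this rule. Tumor cells were told from fibroblasts by Rhox5. This naming rule was set after looking at clusterings, and other names would change the populations. Doublets were not removed in the values reported, and an alternative left out the 8% with the highest simulated doublet score in each library.

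UMIs were summed per library and cell type. Ratios are log2 of CPM with 0.5 UMI added. Genes with a mean of at least 5 CPM over libraries were counted, and a gene was called when it differed from NT at least 2-fold in the same direction in every RT library. Intervals are 95% exact Poisson or Clopper-Pearson. No p-value was computed, because NT is 1 library. The members and gene lists were chosen with earlier results of these data known. Named genes were the 10 members, the called genes of each list or otherwise its 3 most abundant in macrophages, and the 5 genes most like Mrc1, Lyve1, Msr1 and Clec10a. Hmox1 was added after its values were seen, and some list genes that this rule names are not reported here. The ratio step was tested on simulated data. Promoters came from a RefSeq table of GRCm38.p6, not the build of the files, and were matched by symbol. Python 3.11.15, numpy 2.4.6 and scipy 1.17.1 were used.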

Additional observations from a re-analysis of the deposited data

Results flagged for a closer look

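Of the members, 2 moved in opposite directions in different cell types of the same libraries. Folr2 was higher in all 3 RT libraries in macrophages and lower in all 3 in monocytes, and the mean log2 ratios to NT differed by 0.96 between the cell types. Msr1 was lower in all 3 RT libraries in macrophages and higher in all 3 in monocytes and in dendritic cells, with differences of -1.01 and -0.60. These differences were not tested, since all ratios share the 1 NT library. The Folr2 log2 ratio in monocytes was -0.45 as reported, 0.15 with equal weight for every cell and 2.32 with each cell typed by its markers without clusters, so its direction depends on these settings, while it stayed under 0 in the other alternatives run. The Msr1 ratio in dendritic cells was 0.39 as reported and -0.26 without integration.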

How the results depend on the processing

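No paired analysis was possible because NT is 1 library made from 3 pooled tumors. The number of members at least 2-fold apart from NT in every RT library in macrophages was 3 as reported and 1 with a minimum of 20 CPM, which removes Cd209d and Cd209f. It was 2 (Lyve1 and Cd209f) at resolution 0.5, without integration, with the members among the clustering genes, with the unnamed sub-clusters given to the nearest class and with the 3 myeloid classes as 1 population, where the Cd209d log2 ratio was between 0.79 and 1.43 against 4.75 as reported. It was 4 without the filter on low genes (Cd209g added) and with equal weight for every cell (Cd163 added). It ranged from 2 to 5 when 1 RT library was left out. In monocytes it was 0 as reported, 2 without the filter on low genes (Cd209d, from 2 or fewer UMIs per library, and Cd209g, at 0 UMIs in all 4 libraries, so that its ratio comes from the 0.5 UMI added and measures nothing) and 3 with each cell typed by its markers without clusters (Folr2, Clec10a and Msr1). In dendritic cells it was 0 as reported and 2 at resolution 0.5, at resolution 1.2, without integration and with the members among the clustering genes. The populations differ there, with 192 dendritic cells in NT as reported and 82, 17, 98 and 87 under these alternatives. Leaving out 1 RT library gave 0 in monocytes and in dendritic cells. Members higher in every RT library in macrophages were 8 as reported and 6 to 9 under the other settings, and 7 to 8 with 1 RT library left out. The direction of each macrophage ratio was the same under all 19 alternatives, 2 of them (the unnamed sub-clusters given to the nearest class and the shallow sub-cluster left out) chosen after seeing the data. For Lyve1 the log2 ratio ranged from 1.57 to 2.45, for Mrc1 from 0.49 to 1.06, for Msr1 from -0.28 to -0.01, for Cd209d from 0.79 to 5.36 and for Cd209f from 3.13 to 5.28. The number of NT cells limits the Cd209 genes, since 1 of 578 NT macrophages held a Cd209f UMI.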
